A study of Mus musculus with 16 samples.

Results

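The genes described here are 10 enzymes that the transcription factor NRF2 is known to switch on, namely Nqo1, Hmox1, Gclm, Gclc, Txnrd1, Srxn1, Osgin1, Gsr, G6pdx and Pgd. They were taken by symbol from a table of 55421 genes, each symbol matched 1 row, and all 10 passed the filter on low values that left 15239 genes for testing. RNA came from cultured hepatic progenitor cells (oval cells) of the mouse, a cell type that can form hepatocytes and cholangiocytes in the injured liver. There were 4 groups of 4 libraries, which were Ptpn1-/- cells (KO) given 400 µM palmitic acid for 8 h, KO cells without palmitic acid (KO control), Ptpn1+/+ cells (WT) given the same palmitic acid, and WT cells without it (WT control). Ptpn1 encodes PTP1B, a tyrosine phosphatase that turns down insulin receptor signalling, and palmitic acid is a saturated fatty acid toxic to liver cells. Cells were kept in DMEM with serum and palmitic acid was given with bovine serum albumin; the medium of the control cells is not stated. Nor is it stated whether a group's 4 libraries were separate cultures, so the p-values cover only the spread among libraries, possibly technical. The number of cell lines behind each genotype is also unstated, and an effect of genotype and one of cell line cannot be told apart.

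NRF2, encoded by Nfe2l2, is held in the cytoplasm and marked for destruction by KEAP1, a sensor protein whose cysteines react with oxidants and electrophiles. When KEAP1 is modified, NRF2 accumulates, pairs with a small MAF protein and binds antioxidant response elements near genes that make glutathione, reduce thioredoxin, supply NADPH, and break down quinones and heme. In the liver this programme protects hepatocytes against reactive drugs and oxidised lipids.

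Ptpn1 mRNA was low in every KO library. It stood at 326.6, 351.2, 327.8 and 312.5 normalized counts in KO control and 1928.4, 1972.3, 1960.3 and 1885.0 in WT control, and at 286.9, 297.7, 281.4 and 307.5 in KO palmitate and 1852.3, 1828.3, 1860.8 and 1866.1 in WT palmitate. A normalized count is the number of reads of a gene divided by the size factor of its library, and the libraries held 21553952 to 35693442 gene reads. Cell type markers also separated the genotypes. The summed level of 14 progenitor and cholangiocyte markers was 283853 to 316275 over the KO libraries, against 152454 to 164146 over those of WT, with Krt19, Krt7 and Sox9 present in all groups. Most of the sum was Spp1, at 192214.5 in KO palmitate and 85760.8 in WT palmitate, and at 184089 in KO control and 84275 in WT control. Of the 13 that passed the filter 12 were higher and 1, Prom1, was lower in KO control, and after palmitate 11 were higher and 1 lower, with Cd24a not called (0.015, limma adjusted p = 0.623). Epcam, a surface marker of oval cells, averaged 2.6 in KO palmitate and 1.8 in KO control and was at 0 in all WT libraries, and Prom1 was at 0 in KO control. The sum of 10 hepatocyte markers was 52990 to 63246 in KO and 2867 to 3478 in WT, with 6 of the 7 that passed the filter higher in KO, Tdo2 at 0 in all groups and Cps1 at 0 in WT palmitate. The sum of 10 fibroblast and stellate cell markers was 2839 to 3990 in KO and 137777 to 168542 in WT, with 9 of the 9 that passed lower in KO and Lrat at 0 in all groups. For 6 macrophage and leukocyte markers the sum, mostly Csf1r, was 744 to 1000.7 in KO and 667 to 882 in WT, with Adgre1 and Clec4f at 0 throughout. Of the 3 that passed, 2 were higher and 0 lower in KO control, and 1 was higher and 1 lower after palmitate. For 6 endothelial markers the sum was 25.7 to 53.8 in KO and 79.2 to 92.7 in WT, with Tek at 0 in KO palmitate and Stab2 at 0 in WT control. Most of the WT sum was Cdh5, at 66.4 in WT palmitate and 72.5 in WT control. Of the 3 endothelial markers that passed, Cdh5 was lower in KO, Stab2 higher and Vwf not called, under both conditions. The part of these differences in the results below was not tested, and in such bulk RNA fewer cells of a type and less RNA per cell cannot be told apart. On the second principal component, 3.25% of the variance, 1 library of each group lay nearer to 0 than the others. These were library 1 of KO palmitate at 10.4 (others 19.0 to 22.0), library 4 of KO control at -12.3 (others -22.1 to -17.6), library 1 of WT palmitate at 9.79 (others 15.6 to 16.4) and library 4 of WT control at -9.42 (others -16.0 to -14.6). KO palmitate library 1 held the highest value of its group for 8 of the 10 enzymes, and KO control library 4 the lowest for 7.

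RefSeq promoters (GRCm38.p6, 250 bases before to 50 after a start site) were at hand for 7 of the 10 enzymes, with 10 promoters in all, and the others, Hmox1, Gclc and Gsr, are named only. The core of the antioxidant response element was searched as TGACNNNGC and as TGAGNNNGC on both strands. Among all 32851 promoters of this length 12.4% held the first form, 17.6% the second and 27.8% either, and 6 of the 10 enzyme promoters, belonging to 6 of the 7 genes, held either. The background share is per promoter, and Txnrd1 and Pgd also had listed promoters with 0 matches. The Pgd match lay at position 3 after its start site, and the Pgd promoter nearer the 5′ end of the gene held 0. The 4 sequences below are shown because each comes from a gene with a single listed promoter that holds a match, and because their genes range from one higher to one lower in KO. Capitals mark the match, and each sequence reads 5′ to 3′ on the strand of its gene, so that a match on the opposite strand appears as its reverse complement.
Gclm, chr3:122245307-122245606, plus strand: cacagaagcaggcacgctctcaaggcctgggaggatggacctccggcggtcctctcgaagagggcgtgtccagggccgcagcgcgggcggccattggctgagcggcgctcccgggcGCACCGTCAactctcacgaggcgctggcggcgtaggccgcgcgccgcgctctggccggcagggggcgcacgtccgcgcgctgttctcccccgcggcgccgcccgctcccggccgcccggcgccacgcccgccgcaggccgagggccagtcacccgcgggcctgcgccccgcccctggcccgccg
Srxn1, chr2:152105274-152105573, plus strand: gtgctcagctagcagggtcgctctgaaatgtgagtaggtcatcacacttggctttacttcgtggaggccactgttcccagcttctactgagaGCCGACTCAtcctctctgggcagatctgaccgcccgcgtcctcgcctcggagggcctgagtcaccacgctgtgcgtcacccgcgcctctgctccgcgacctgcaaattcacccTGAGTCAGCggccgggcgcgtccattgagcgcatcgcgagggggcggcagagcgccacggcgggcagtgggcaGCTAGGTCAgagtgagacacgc
Osgin1, chr8:119436897-119437196, plus strand: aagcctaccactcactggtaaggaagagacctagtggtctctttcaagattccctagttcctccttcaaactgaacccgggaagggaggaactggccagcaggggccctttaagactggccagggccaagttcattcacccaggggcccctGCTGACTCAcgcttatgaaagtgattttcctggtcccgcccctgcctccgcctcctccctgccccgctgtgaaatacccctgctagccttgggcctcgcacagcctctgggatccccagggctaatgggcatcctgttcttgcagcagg
G6pdx, chrX:74428831-74429130, minus strand: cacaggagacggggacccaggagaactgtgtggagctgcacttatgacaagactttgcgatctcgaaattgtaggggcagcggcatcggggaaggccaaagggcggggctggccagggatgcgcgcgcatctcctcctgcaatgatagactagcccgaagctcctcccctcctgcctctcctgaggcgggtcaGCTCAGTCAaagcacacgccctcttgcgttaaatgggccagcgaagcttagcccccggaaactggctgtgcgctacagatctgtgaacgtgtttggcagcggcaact
Srxn1 held 3 matches, whose first bases along the gene lay 158 and 45 bases before the start site and at position 28 after it. The second of these, TGAGTCAGC, also stood in the Osgin1 promoter on the opposite strand, with its first base 99 bases before the start. In both genes it overlapped TGACTCA, the AP-1 motif read on either strand, which 5.2% of all promoters held. The Gclm match was TGACGGTGC and the G6pdx match TGACTGAGC, both on the opposite strand, with first bases 134 and 57 bases before the start. The Nqo1 promoter held no match in this window. A match is a run of letters and not a measured binding site, and the search covers only this window.

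**Figure D1:**
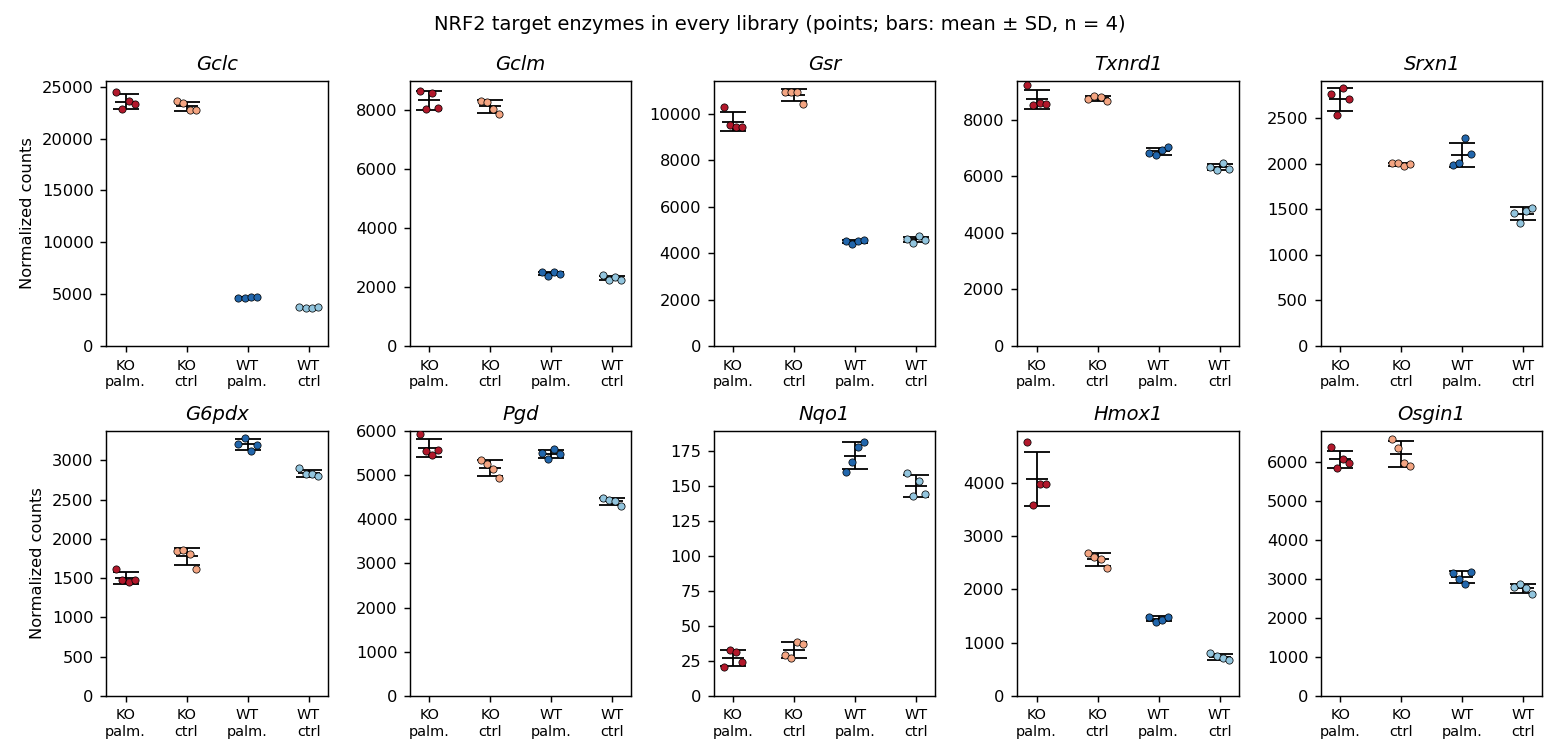
Normalized counts (linear axes starting at 0) of the 10 NRF2 target enzymes in each of the 16 libraries, by group, with points for libraries and bars for the mean ± SD of 4. Gclc, Gclm, Gsr, Hmox1 and Osgin1 are high in both KO groups, Nqo1 and G6pdx are low there, and Srxn1 and Hmox1 are higher with palmitate in both genotypes.

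KO and WT cells were compared first. Of the 10 enzymes 8 were higher in KO control than in WT control cells and 2, Nqo1 and G6pdx, were lower, in limma with Benjamini-Hochberg adjustment over all genes at an adjusted p under 0.05. Both genes of the glutathione-making enzyme, the glutathione reductase gene, heme oxygenase and Osgin1 differed by more than 2-fold upward, and the quinone reductase Nqo1 by more than 4-fold downward. After palmitate 7 were higher, the same 2 were lower and Pgd was not called. The background was wide, since 77.1% of all genes tested were called in control and 77.1% after palmitate, with 37.8% higher and 39.3% lower in control and 38.1% higher and 39.0% lower after palmitate. The median log2 fold change of the 10 was 0.82 in control and 0.68 after palmitate, against -0.0077 and -0.011 over all genes. The split of all genes turned on the scaling. With libraries rescaled to the same total, 4993 were higher and 6798 lower in control, and 4823 higher and 7034 lower after palmitate. The medians were then 0.74 and 0.58 for the 10, and -0.085 and -0.11 over all genes. In control none of the 10 overlapped between the 4 KO and the 4 WT libraries, which held for 71.4% of all genes, and after palmitate 9 did not overlap, against 71.8% of all genes. Each of those differences had an exact two-sided permutation p of 0.0286, the smallest that 70 assignments of 8 libraries allow. Fold changes are on the log2(value + 1) scale, from limma, with their standard errors (SE).

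Glutathione is made in a chain that starts with glutamate-cysteine ligase, and Gclc encodes its catalytic subunit and Gclm its modifier subunit. In GRCm38, with positions from GENCODE release 21 for mouse, Gclc is ENSMUSG00000032350.9, chr9:77754535-77794485, plus strand, and Gclm is ENSMUSG00000028124.15, chr3:122245557-122270732, plus strand. Gclc had 23591.4, 23439.5, 22729.7 and 22769.2 in the KO control libraries, against 3809.0, 3663.9, 3634.2 and 3762.5 in the WT control libraries. After palmitate it had 24511.3, 22815.0, 23646.4 and 23297.6 in the KO palmitate libraries, against 4664.8, 4583.7, 4713.9 and 4728.0 in the WT palmitate libraries. The lowest KO library was more than 4 times the highest WT library under either condition, and Gclc had the largest upward difference of the 10. The log2 fold change was 2.64 ± 0.03 in control (limma adjusted p = 3.1e-33) and 2.33 ± 0.03 after palmitate (limma adjusted p = 6.03e-32). Gclm had 8304.1, 8255.9, 8030.8 and 7851.9 in the KO control libraries, against 2399.6, 2234.9, 2333.6 and 2248.2 in the WT control libraries. With palmitate it had 8627.6, 8012.5, 8583.8 and 8051.4 in the KO palmitate libraries, against 2501.1, 2386.4, 2514.3 and 2455.2 in the WT palmitate libraries. All KO libraries were above all WT libraries, by 1.82 ± 0.03 in control and 1.75 ± 0.03 after palmitate on the log2 scale (limma adjusted p = 8.86e-28 and 2.1e-27). Its exons share 296 bases with Gm17494 on the opposite strand and 244 with Gm6061, which averaged 24.8 and 15.6 normalized counts over all libraries.

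Gsr encodes glutathione reductase, which regenerates glutathione from its oxidised form with NADPH (ENSMUSG00000031584.16, chr8:33652523-33698163, plus strand). It had 10943.1, 10948.7, 10935.4 and 10411.5 in the KO control libraries, against 4625.1, 4433.4, 4719.4 and 4584.9 in the WT control libraries. After palmitate it had 10284.9, 9507.6, 9417.8 and 9427.2 in the KO palmitate libraries, against 4504.6, 4394.5, 4502.4 and 4549.0 in the WT palmitate libraries. The groups were far apart, and the log2 fold changes were 1.23 ± 0.03 in control and 1.11 ± 0.03 after palmitate (limma adjusted p = 2.15e-24 and 2.97e-23).

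The thioredoxin and peroxiredoxin enzymes differed less. Txnrd1 encodes the cytosolic thioredoxin reductase, a selenoprotein that passes electrons from NADPH to thioredoxin (ENSMUSG00000020250.10, chr10:82833951-82897712, plus strand). It had 8723.8, 8847.7, 8801.2 and 8661.1 in the KO control libraries, against 6340.9, 6224.0, 6463.3 and 6273.8 in the WT control libraries. With palmitate the values were 9220.7, 8531.8, 8578.2 and 8572.5 in the KO palmitate libraries, against 6812.4, 6769.3, 6922.9 and 7025.6 in the WT palmitate libraries. KO was higher without overlap, by 0.47 ± 0.03 in control and 0.34 ± 0.03 after palmitate on the log2 scale (limma adjusted p = 1.7e-15 and 2.27e-12). Srxn1 encodes sulfiredoxin, which repairs overoxidised peroxiredoxins (ENSMUSG00000032802.8, chr2:152105516-152111376, plus strand). It had 2005.5, 2002.6, 1971.5 and 2000.2 in the KO control libraries, against 1464.0, 1351.8, 1481.5 and 1513.2 in the WT control libraries. In palmitate Srxn1 had 2759.2, 2533.9, 2825.7 and 2710.7 in the KO palmitate libraries, against 1989.5, 2003.0, 2279.6 and 2107.0 in the WT palmitate libraries. These differences, 0.46 ± 0.04 and 0.37 ± 0.04 on the log2 scale (limma adjusted p = 5.51e-11 and 3.84e-09), were also without overlap. For both genes the size lay near the upper quartile of all genes, which was 0.40 in control and 0.38 after palmitate.

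The NADPH-making enzymes of the pentose phosphate pathway went apart. G6pdx, the X-linked gene of glucose-6-phosphate dehydrogenase, which opens the pathway (ENSMUSG00000031400.10, chrX:74409483-74429194, minus strand), had 1840.2, 1853.1, 1801.6 and 1611.8 in the KO control libraries, against 2903.3, 2820.8, 2822.8 and 2797.9 in the WT control libraries. With palmitate G6pdx had 1616.7, 1476.7, 1443.4 and 1472.4 in the KO palmitate libraries, against 3212.0, 3284.6, 3124.0 and 3196.0 in the WT palmitate libraries. KO was below WT in every library, by a log2 fold change of -0.68 ± 0.04 in control and -1.09 ± 0.04 after palmitate (limma adjusted p = 1.92e-15 and 2.5e-20). Its exons share 418 bases with Ikbkg, an NF-kB pathway gene on the opposite strand, and the sources do not say whether counting used the strand, so reads there cannot be told apart. Ikbkg itself was higher in KO, at 9562.9 ± 123 normalized counts in KO palmitate and 2493.8 ± 85.7 in WT palmitate, and at 8100.1 ± 105 in KO control and 2209.2 ± 61.6 in WT control (SD, n = 4 each). Pgd encodes 6-phosphogluconate dehydrogenase, the next NADPH-making step (ENSMUSG00000028961.15, chr4:149149991-149166771, minus strand). It had 5342.4, 5245.9, 5133.3 and 4937.9 in the KO control libraries, against 4473.2, 4445.2, 4417.2 and 4295.0 in the WT control libraries. With palmitate Pgd had 5926.4, 5550.3, 5454.5 and 5563.6 in the KO palmitate libraries, against 5499.8, 5359.4, 5591.8 and 5477.9 in the WT palmitate libraries. It was higher in KO control by 0.23 ± 0.03 on the log2 scale (limma adjusted p = 5.36e-08), and after palmitate the groups overlapped, at 0.04 ± 0.03 (limma adjusted p = 0.264). That last value depended on the scaling. It was -0.063 with all libraries rescaled to the same total (limma adjusted p = 0.0259) and -0.11 after quantile normalization (limma adjusted p = 0.000178), so that Pgd then counted as lower in KO.

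Nqo1 encodes NAD(P)H quinone dehydrogenase, which reduces quinones in a single step that avoids radicals and is often used as a readout of NRF2 (ENSMUSG00000003849.8, chr8:107388225-107403206, minus strand). It ran against most of the others. Nqo1 had 28.9, 26.7, 38.3 and 37.0 in the KO control libraries, against 159.6, 142.6, 153.7 and 144.4 in the WT control libraries. In palmitate its values were 20.4, 32.6, 31.1 and 24.2 in the KO palmitate libraries, against 160.2, 167.5, 178.0 and 181.5 in the WT palmitate libraries. The highest KO library stood at 38.3 and the lowest WT library at 142.6. The WT mean was 4.59 times the KO mean in control and 6.35 times after palmitate, and KO differed from WT on the log2 scale by -2.18 ± 0.15 and -2.64 ± 0.15 (limma adjusted p = 7.22e-14 and 8.65e-16). The KO values rest on 115 reads over the 4 KO control libraries and 104 over the 4 KO palmitate libraries, against 625 in WT control and 818 in WT palmitate, so its spread in KO was the widest of the 10, at 17.7% and 21.4% of the mean.

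Hmox1 encodes the inducible heme oxygenase, which cuts heme into biliverdin, carbon monoxide and iron (ENSMUSG00000005413.8, chr8:75093621-75100589, plus strand). It had 2691.5, 2609.0, 2566.1 and 2406.8 in the KO control libraries, against 805.8, 742.2, 705.7 and 673.6 in the WT control libraries. After palmitate it had 4780.8, 3580.3, 3977.8 and 3980.6 in the KO palmitate libraries, against 1484.8, 1394.8, 1423.1 and 1490.7 in the WT palmitate libraries. KO libraries were higher without overlap, by 1.81 ± 0.07 in control and 1.49 ± 0.07 after palmitate on the log2 scale (limma adjusted p = 2.42e-12 and 3.17e-11). Osgin1 encodes an oxidative stress-induced growth inhibitor (ENSMUSG00000074063.10, chr8:119434124-119446256, plus strand). It had 6601.5, 6359.0, 5966.0 and 5893.4 in the KO control libraries, against 2785.5, 2856.3, 2769.5 and 2598.5 in the WT control libraries. With palmitate Osgin1 had 6374.0, 5853.4, 6078.4 and 5969.5 in the KO palmitate libraries, against 3150.9, 2990.3, 2860.0 and 3172.1 in the WT palmitate libraries. These were differences of 1.17 ± 0.04 in control and 1.0 ± 0.04 after palmitate on the log2 scale, with all KO libraries above all WT libraries (limma adjusted p = 1.74e-19 and 5.8e-18).

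**Figure D2:**
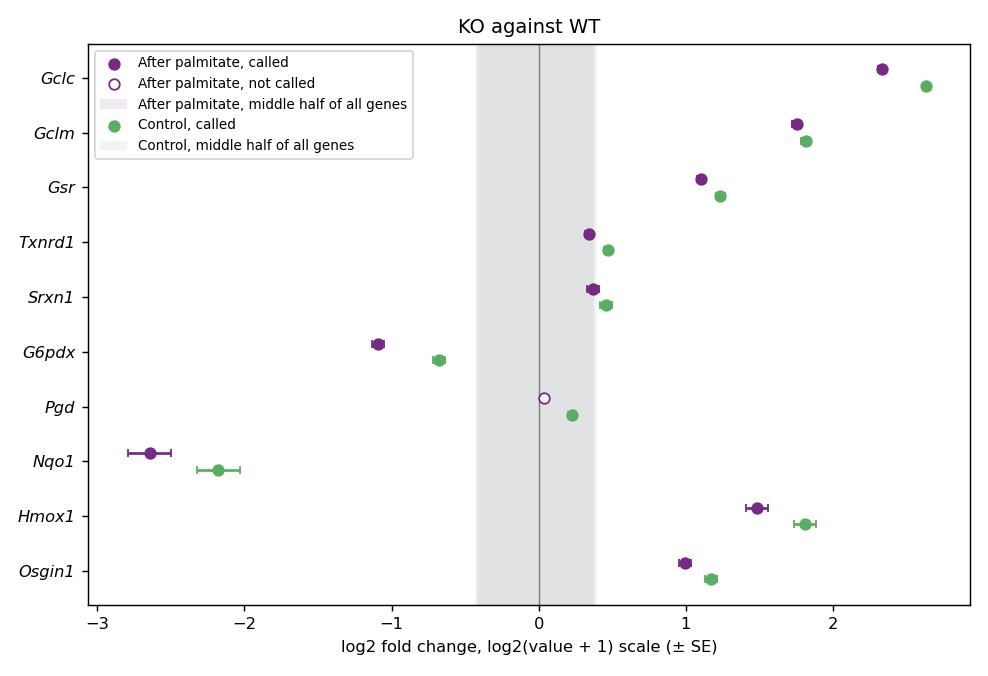
Log2 fold change of KO against WT (± SE, limma) for each enzyme, after palmitate (upper point, purple) and in control (lower point, green); filled points were called and shaded bands span the quartiles of all genes tested. Gclc lies farthest right at 2.33 and 2.64, Nqo1 farthest left at -2.64 and -2.18, and Pgd after palmitate is the open point at 0.04, which lay below 0 under both other scalings tried.

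The genes were also ordered by level per kb of annotated exon, in normalized counts per kb, to set genes of different length side by side. The length is the union of all annotated exons of a gene, from 1.55 kb for Nqo1 to 7.09 kb for Txnrd1. Transcripts present in these cells may be shorter, so the order depends on this choice of length. In KO control Gclc was first at 6142 ± 119, followed by Gsr at 3925 ± 96.4 and Osgin1 at 2320.5 ± 125 (SD, n = 4 each). Hmox1 stood at 1467 ± 68.3, and Gclm at 1289 ± 33.3 and Txnrd1 at 1236 ± 11.7 overlapped. Pgd at 801 ± 26.9, Srxn1 at 707 ± 5.60 and G6pdx at 577 ± 36.4 came next, and Nqo1 was last at 21.1 ± 3.72. In WT control Gsr was first at 1667 ± 43.2, and Osgin1 at 1029 ± 40.9 overlapped with Gclc at 987 ± 21.8. G6pdx at 921 ± 14.97 and Txnrd1 at 893 ± 14.6 overlapped too, and Pgd at 684 ± 12.2, Srxn1 at 515 ± 24.9, Hmox1 at 418 ± 32.4, Gclm at 366 ± 12.3 and Nqo1 at 96.6 ± 5.15 followed without overlap between neighbours. With palmitate Hmox1 followed Gclc and Gsr in KO at 2330.0 ± 288, overlapping with Osgin1 at 2269.6 ± 83.5, and in WT it stood at 827 ± 26.9, overlapping with Pgd above and Srxn1 below. The catalytic and modifier subunit genes of glutamate-cysteine ligase thus differed within a genotype on this scale, with Gclc above Gclm in all 4 groups.

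Palmitate was next set against control in KO cells. Srxn1, Hmox1 and Pgd rose, Gsr and G6pdx fell, and the other 5 were not called. With 3 of 10 higher and 2 of 10 lower, the share stood near the background, in which 39.1% of all genes were called, 18.7% higher and 20.4% lower. The median log2 fold change was 0.01 for the 10 and 6.2e-05 for all genes. Hmox1 stood at 4079.9 ± 504 in KO palmitate and 2568.3 ± 120 in KO control (SD, n = 4 each), a rise of 0.66 ± 0.07 on the log2 scale, or 58.9% (limma adjusted p = 4.23e-06). Its palmitate libraries ran from 3580.3 to 4780.8, all above the control libraries. Srxn1 rose by 0.44 ± 0.04 on the log2 scale, or 35.7% (limma adjusted p = 1.96e-09), and Pgd by 0.12 ± 0.03, or 8.88% (limma adjusted p = 0.00131), both without overlap. G6pdx fell by 15.4%, a log2 fold change of -0.24 ± 0.04 (limma adjusted p = 1.18e-05), and its groups overlapped by 1 pair of libraries at 1616.7 in KO palmitate and 1611.8 in KO control. Gsr fell by 10.6%, a log2 fold change of -0.16 ± 0.03 (limma adjusted p = 5.92e-05), without overlap. Gclc (0.03 ± 0.03), Gclm (0.04 ± 0.03), Txnrd1 (-0.01 ± 0.03), Osgin1 (-0.03 ± 0.04) and Nqo1 (-0.27 ± 0.15) did not pass, at limma adjusted p of 0.457, 0.388, 0.884, 0.568 and 0.144. After quantile normalization Gclc (0.14, limma adjusted p = 1.71e-05) and Gclm (0.095, limma adjusted p = 0.00623) were called as higher as well.

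In WT cells 8 of the 10 enzymes rose with palmitate and 0 fell, where 37.6% of all genes were called, 17.7% higher and 19.9% lower, and the exceptions were Gsr and Nqo1. The split of all genes turned on the scaling, from 2702 higher and 3032 lower to 3656 higher and 2265 lower with libraries rescaled to the same total, and the count of 8 enzymes stood under both. The median log2 fold change was 0.18 for the 10 and 0.0072 for all genes. Hmox1 again moved most, at 1448.4 ± 47.0 in WT palmitate and 731.8 ± 56.7 in WT control (SD, n = 4 each), a rise of 0.99 ± 0.07 on the log2 scale, or 97.9% (limma adjusted p = 6.82e-08). It ranked 171 by absolute change among the 15239 genes. Srxn1 rose by 44.2%, or 0.53 ± 0.04 on the log2 scale (limma adjusted p = 9.3e-11), Gclc by 25.7%, or 0.33 ± 0.03 (limma adjusted p = 1.09e-10), and Pgd by 24.4%, or 0.31 ± 0.03 (limma adjusted p = 2.06e-09). These 4 genes had no overlap between the palmitate and the control libraries. G6pdx rose by 13.0%, Osgin1 by 10.6%, Txnrd1 by 8.81% and Gclm by 6.95%, with log2 fold changes of 0.18 ± 0.04, 0.14 ± 0.04, 0.12 ± 0.03 and 0.1 ± 0.03 (limma adjusted p = 0.000577, 0.00454, 0.000557 and 0.0142). The Gclm libraries overlapped, and without WT control library 2 its adjusted p was 0.0591. Nqo1 libraries did not overlap, at 160.2 to 181.5 in WT palmitate and 142.6 to 159.6 in WT control, but its log2 fold change of 0.19 ± 0.15 did not pass (limma adjusted p = 0.323). Gsr stood at -0.03 ± 0.03 (limma adjusted p = 0.422). Altogether 8 of the 10 enzymes did not overlap between WT palmitate and WT control, against 37.1% of all genes, and 4 between KO palmitate and KO control, against 33.8%.

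**Figure D3:**
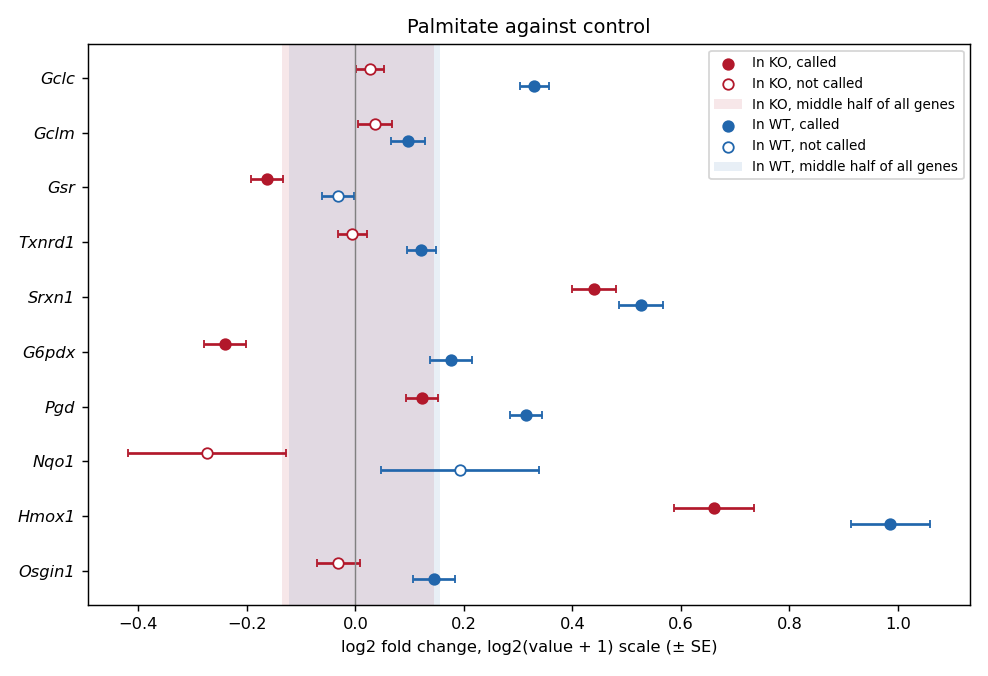
Log2 fold change of palmitate against control (± SE, limma) for each enzyme in KO (upper point, red) and in WT (lower point, blue); filled points were called and shaded bands span the quartiles of all genes tested. The WT point lies to the right of the KO point for every enzyme, with Hmox1 at 0.66 in KO and 0.99 in WT and G6pdx at -0.24 in KO and 0.18 in WT.

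The difference between these responses was tested directly, as the palmitate response in KO minus that in WT on the log2 scale. It thus compares relative changes and not rises in counts, from control levels that differed between the genotypes. It was below 0 for all 10 enzymes, where 49.9% of all genes lay below 0, and the median was -0.18 for the 10 and 0.00041 for all genes. For 6 enzymes it was called, each with the lower response in KO, and for 0 the other way. Among all genes 9.90% were called, 5.71% lower and 4.19% higher, or 638 higher and 870 lower against 489 higher and 1141 lower with libraries rescaled to the same total. G6pdx had the largest called difference of the 10, -0.42 ± 0.05 (limma adjusted p = 1.03e-05), and it fell in KO and rose in WT. Gclc stood at -0.30 ± 0.04 (limma adjusted p = 3.76e-06), with 23567.5 ± 716 in KO palmitate and 23132.4 ± 447 in KO control, and 4672.6 ± 65.2 in WT palmitate and 3717.4 ± 82.1 in WT control (SD, n = 4 each). Pgd stood at -0.19 ± 0.04 (limma adjusted p = 0.00268).

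The other 3 calls were close to the threshold, with Osgin1 at -0.18 ± 0.06, Gsr at -0.13 ± 0.04 and Txnrd1 at -0.13 ± 0.04 (limma adjusted p = 0.0429, 0.0438 and 0.0279). Hmox1 (-0.33 ± 0.1, limma adjusted p = 0.064) and Nqo1 (-0.47 ± 0.21, limma adjusted p = 0.16) had larger differences with wider errors. The Hmox1 difference was called by edgeR (adjusted p = 0.0307) and DESeq2 (adjusted p = 0.0353). It was also called with libraries rescaled to the same total (limma adjusted p = 0.016) and after quantile normalization (limma adjusted p = 0.0298). Srxn1 (-0.09 ± 0.06) and Gclm (-0.06 ± 0.04) were smaller, with limma adjusted p of 0.383 and 0.434. Without KO palmitate library 1 the difference of Hmox1 was -0.40 (limma adjusted p = 0.000534) and 7 enzymes were called, against 6 without KO control library 4, 4 without WT palmitate library 1 and 4 without WT control library 4. The number called was 3 when limma was run without its trend and robust steps, and also 3 without KO palmitate library 2 or 3, KO control library 2, or WT palmitate library 4. G6pdx, Gclc and Pgd were called under each of the 26 settings run. All 10 differences lay below 0 under those same settings. The share of mitochondrial mRNA was 3.93% to 4.22% in KO palmitate and 3.39% to 3.72% in KO control, while WT palmitate had 3.57% to 3.80% and WT control 3.44% to 3.55%. The rRNA share of the counts, what remained after depletion, was 0.101% to 0.107% in KO palmitate and 0.0811% to 0.0864% in KO control. It was 0.0580% to 0.0624% in WT palmitate and 0.0525% to 0.0543% in WT control. Neither share is a direct measure of RNA quality, and the part of these shares in the results was not tested.

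**Figure D4:**
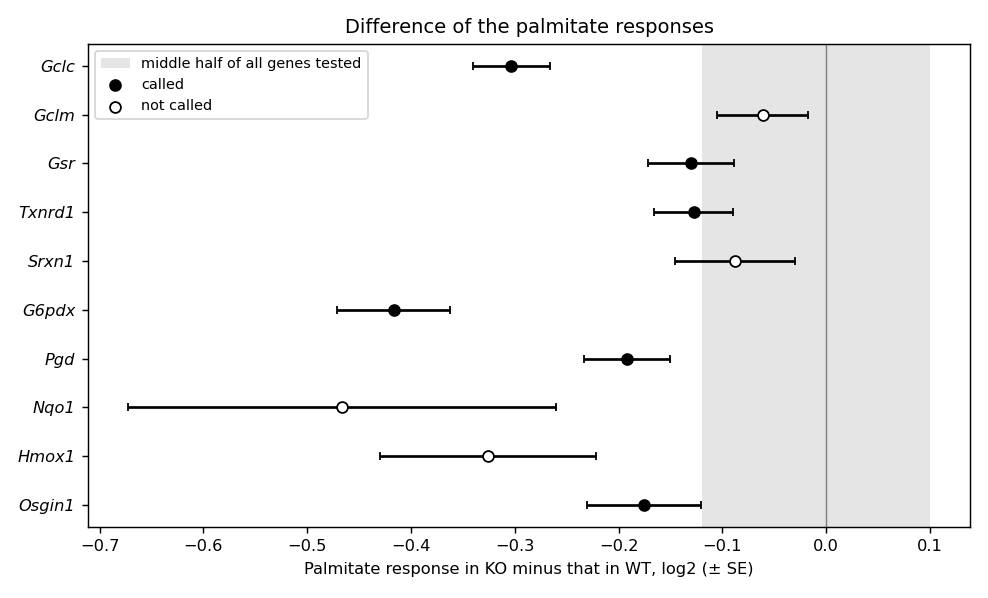
Palmitate response in KO minus that in WT, in log2 units (± SE, limma), for each enzyme; filled points were called, open points were not, and the grey band spans the quartiles of all genes tested. All 10 points lie left of 0, from -0.47 for Nqo1 to -0.06 for Gclm.

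Genes that control NRF2 were examined next. Of 12 regulators, all above the filter, 10 were higher and 1 lower in KO control than in WT control, and the same counts held after palmitate. This stands beside 77.1% of all genes called in each of these comparisons. Nfe2l2, the NRF2 gene itself, stood at 5594.2 ± 85.2 normalized counts in KO control and 3346.5 ± 58.2 in WT control (SD, n = 4 each), higher by 0.74 ± 0.03 on the log2 scale. Sqstm1, whose protein p62 draws KEAP1 into autophagy, was higher by 0.75 ± 0.03, and the small MAF genes Maff, Mafg and Mafk by 0.69 ± 0.05, 0.40 ± 0.03 and 0.39 ± 0.05. Keap1, the inhibitor, was higher by 0.17 ± 0.03, and Bach1, a repressor that competes for the same elements, by 0.21 ± 0.04. Cul3, the ligase scaffold that works with KEAP1, stood at 0.10 ± 0.03, Rbx1, its RING partner, at -0.29 ± 0.04, and Btrc and Gsk3b, which serve a second route of NRF2 destruction, at 0.21 ± 0.04 and 0.21 ± 0.03. Nfe2l1, a related factor, was not called (0.02 ± 0.02). Palmitate raised 7 and lowered 2 of the 12 in KO, and raised 9 and lowered 1 in WT, beside 39.1% of all genes called in KO and 37.6% in WT. Nfe2l2 rose by 0.11 ± 0.03 in KO and 0.15 ± 0.03 in WT, and Nfe2l1 by 0.46 ± 0.02 and 0.48 ± 0.02. Sqstm1 rose by 0.34 ± 0.03 in KO and 0.72 ± 0.03 in WT, a difference of -0.38 ± 0.04 (limma adjusted p = 2.4e-07). Maff fell in KO (-0.21 ± 0.05) and rose in WT (0.23 ± 0.05), a difference of -0.44 ± 0.08 (limma adjusted p = 0.000298). The other 10 regulators were not called for a difference of responses.

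**Figure D5:**
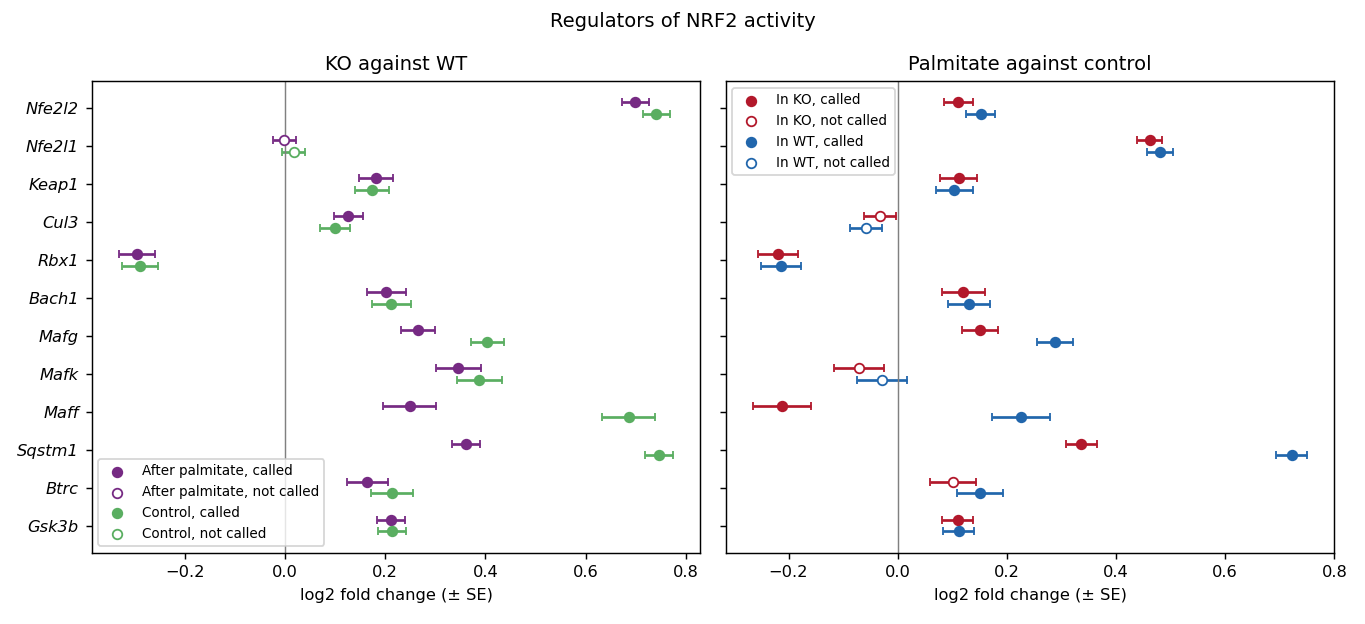
Log2 fold change (± SE, limma) of 12 regulators of NRF2 activity, for KO against WT (left; purple after palmitate, green in control) and for palmitate against control (right; red in KO, blue in WT), with filled points for calls. Nfe2l2 lies at 0.70 and 0.74 on the left, and Sqstm1 lies at 0.34 in KO and 0.72 in WT on the right.

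A further 54 genes of the same pathways, in 5 lists, gave a wider view. Their counts stand beside the shares of all genes called. For KO against WT these were 37.8% higher and 39.3% lower in control, and 38.1% higher and 39.0% lower after palmitate. For palmitate they were 18.7% higher and 20.4% lower in KO, and 17.7% higher and 19.9% lower in WT. With the regulators the lists hold 66 genes, of which 43 were higher and 18 lower in KO control, and 43 higher and 17 lower in KO after palmitate. With palmitate 29 of the 66 were higher and 13 lower in KO, and 33 higher and 7 lower in WT. Among 12 genes of glutathione supply, 8 were higher and 4 lower in KO control, with Cbs, which feeds homocysteine into cysteine synthesis, at 3.80 ± 0.05 on the log2 scale, the 5-oxoprolinase gene Oplah at 2.88 ± 0.10 and Chac1, which degrades glutathione, at -2.70 ± 0.10. After palmitate 8 were higher and 2 lower, with Cbs at 3.64 ± 0.05, Oplah at 3.21 ± 0.10 and the glutathione synthetase gene Gss at 1.79 ± 0.04. Palmitate raised 6 of the 12 in each genotype and lowered 0. Slc7a11, the cystine importer and itself a known NRF2 target, rose by 3.27 ± 0.07 in KO, at 913.4 ± 57.4 normalized counts in KO palmitate and 94.0 ± 8.03 in KO control, and by 2.12 ± 0.07 in WT, at 1035.6 ± 40.6 in WT palmitate and 238.1 ± 20.3 in WT control (SD, n = 4 each). Chac1 rose by 2.99 ± 0.10 in KO and 1.26 ± 0.10 in WT, Cth, which releases cysteine from cystathionine, by 0.41 ± 0.07 in KO, and Slc3a2, the partner chain of the cystine importer, by 0.62 ± 0.03 in WT. On the log2 scale the response was larger in KO for Chac1 (difference 1.73 ± 0.14) and Slc7a11 (1.15 ± 0.10), opposite in sign to the 10 enzymes. It was smaller in KO for Slc3a2 (-0.21 ± 0.04). Slc7a11 was lower in KO than in WT, at -1.33 ± 0.07 in control and -0.18 ± 0.07 after palmitate (limma adjusted p = 1.19e-16 and 0.0161). Its larger relative response in KO thus started from a lower control level. Chac1 also stayed below WT in KO, at 384.4 ± 59.7 in KO palmitate and 47.4 ± 7.51 in KO control. In WT it had 746.4 ± 26.5 with palmitate and 310.5 ± 8.93 in control (SD, n = 4 each).

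Of 9 thioredoxin system genes, 4 were higher and 5 lower in KO under both conditions, where 77.1% of all genes were called in each. Txnip, the thioredoxin inhibitor, stood at -1.69 ± 0.03 in control and -1.33 ± 0.03 after palmitate, Txnrd3 at -1.44 ± 0.06 and -1.40 ± 0.06, and thioredoxin itself, Txn1, which has pseudogene copies and is uncertain, at -0.63 ± 0.03 and -0.66 ± 0.03. Palmitate raised 3 and lowered 3 in each genotype, with Sesn2 at 0.61 ± 0.06 in KO and 0.64 ± 0.06 in WT, Txnip at 0.53 ± 0.03 in KO, the methionine sulfoxide reductase gene Msra at -0.23 ± 0.06 in KO, and Txn1 at -0.17 ± 0.03 and Msrb1 at 0.17 ± 0.05 in WT. The response of Txnip alone among the 9 was called as different, by 0.36 ± 0.05.

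Of 11 genes of NADPH supply, 6 were higher and 4 lower in KO under both conditions, beside the same 77.1% of all genes. Malic enzyme, Me1, stood at 1.37 ± 0.02 in control and 1.46 ± 0.02 after palmitate, Idh2 at 0.63 ± 0.03 and 0.52 ± 0.03, and the ribose-5-phosphate isomerase gene Rpia at -0.90 ± 0.07 and -0.70 ± 0.07. Palmitate raised 3 and lowered 4 in KO, with Idh1 at 0.66 ± 0.03, the folate enzyme gene Mthfd1 at -0.41 ± 0.04 and Rpia at 0.26 ± 0.07. It raised 2 and lowered 3 in WT, with Idh1 at 0.85 ± 0.03, Mthfd1 at -0.42 ± 0.04 and Tigar at -0.24 ± 0.05. Palmitate calls covered 39.1% of all genes in KO and 37.6% in WT. The response was lower in KO for H6pd, the glucose-6-phosphate dehydrogenase of the endoplasmic reticulum (-0.25 ± 0.04), and for Idh1 (-0.19 ± 0.05).

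Of 12 quinone and carbonyl reduction genes, 8 were higher and 3 lower in KO under both conditions. The microsomal epoxide hydrolase Ephx1 stood at 3.15 ± 0.03 in control and 2.93 ± 0.03 after palmitate, the carbonyl reductase Cbr3 at 3.06 ± 0.11 and 3.28 ± 0.11, and the aldehyde oxidase Aox1 at 2.96 ± 0.10 and 2.45 ± 0.10. Palmitate raised 7 and lowered 1 in KO, with Cbr3 at 0.53 ± 0.11, Ptgr1 at 0.43 ± 0.08 and the retinal dehydrogenase gene Aldh1a1 at 0.41 ± 0.03. It raised 8 and lowered 0 in WT, with Aox1 at 0.56 ± 0.10, Ephx1 at 0.42 ± 0.03 and Cbr1 at 0.42 ± 0.04. The response was lower in KO for 4 and higher for 0, led by Aox1 (-0.51 ± 0.14), Cbr1 (-0.28 ± 0.05) and Ephx1 (-0.22 ± 0.04).

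Of 10 heme and iron genes, 7 were higher and 1 lower in KO control, and 7 higher and 2 lower after palmitate. The ferritin chains Fth1 and Ftl1, which have many pseudogene copies and are uncertain, stood at 1.96 ± 0.03 and 1.22 ± 0.03 in control and 1.75 ± 0.03 and 1.12 ± 0.03 after palmitate, and ferrochelatase, Fech, at 0.86 ± 0.03 and 0.77 ± 0.03. Palmitate raised 3 and lowered 3 in KO, with the iron exporter Slc40a1 at 0.18 ± 0.04, Ftl1 at 0.17 ± 0.03 and the heme transporter Slc48a1 at 0.14 ± 0.03. It raised 5 and lowered 0 in WT, with Slc48a1 at 0.30 ± 0.03, the biliverdin reductase gene Blvrb at 0.30 ± 0.09 and Ftl1 at 0.27 ± 0.03. The response was lower in KO for Fth1 (-0.22 ± 0.04) and Slc48a1 (-0.17 ± 0.04). Over all 66 genes of the 6 lists, 3 were called with a higher and 11 with a lower response in KO. Among all genes tested 4.19% were called higher and 5.71% lower.

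The profile of each enzyme over the 16 libraries was finally compared with 11299 well-expressed genes by Pearson correlation, given as a description of libraries that share the genotype contrast. For Gclc the most alike genes were Cat (0.999), Mgst1 (0.999) and Irak2 (0.999), for Gclm Habp2, Cat and Cyb5a (0.999 each), for Gsr Pik3ap1 (0.999), Ctnnb1 (0.999) and Sprr1a (0.998), and for Osgin1 Gstm1 (0.997), Aldoa (0.997) and Acox2 (0.997). For Txnrd1 they were Creg1 (0.995), Sgpl1 (0.995) and Ctsz (0.994), for Hmox1 Fam129a (0.993), Etfdh (0.991) and Mllt11 (0.991), for Nqo1 Pde2a (0.994), Nptxr (0.994) and Ldlrad4 (0.993), and for G6pdx Triobp (0.994), Trim35 (0.991) and Bhlhe41 (0.99). Such values were common, since 1930 genes reached a correlation of 0.95 with Gclm and 401 with Hmox1. The fewest were 61 for Srxn1 and 1 for Pgd. Their most alike genes were Slc25a20 (0.987), Ndrg1 (0.983) and Herpud1 (0.982) for Srxn1, and Klf11 (0.954), Tgif1 (0.95) and Ndrg1 (0.945) for Pgd.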

How the data were processed

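RNA of 16 libraries was depleted of ribosomal RNA, fragmented and sequenced in paired reads of 76 bases, per the labels' protocols, which call the starting RNA low in quality. The protocols also speak of fixed, paraffin-embedded samples, while the cells here were cultured. Whether the wording on quality applies to these libraries is therefore unknown. The deposited table is normalized counts, a linear signal. STAR, RSEM, DESeq2 and limma are listed without role or version per the submitters' processing notes. The genome build, annotation and use of strand were not stated by the sources used here. Each value is a gene's reads divided by a size factor. Reads were recovered from the steps between values, with 100% of values whole within 0.1 read, and gave 21553952 to 35693442 reads per library. Values were tested as log2(value + 1) with limma 3.58.1 (trend and robust fitting, all 16 libraries, R 4.3.3) over the 15239 of 55421 genes with at least 10 in at least 4 libraries, because the table holds normalized values. Each of 5 comparisons had its own Benjamini-Hochberg adjustment. edgeR 4.0.16 on the recovered reads called 11773, 11902, 5952, 6208 and 1596 genes and DESeq2 1.42.0 called 11476, 11595, 5543, 5731 and 1558, for KO against WT in control and after palmitate, palmitate in KO and in WT, and the difference of responses. The limma fit was also run on simulated data with 1 fixed spread and few changed genes. These data differ from that setting, so the run cannot give error rates for them. Exon lengths and positions came from GENCODE, in which 54673 identifiers, all 10 enzymes included, had the same version. The enzymes and gene lists were chosen with earlier results of these data known. Beyond the 10 enzymes and 12 regulators, the text names up to 3 called genes of each list with the largest change in each comparison, and for each enzyme the 3 genes of highest correlation with a mean of at least 50. Other pseudocounts, filters, scalings, tools and left-out libraries were also tried.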

Additional observations from a re-analysis of the deposited data

Results flagged for a closer look

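In 4 of 40 enzyme-by-group sets of 4 libraries, 1 library stood apart by Dixon's test, which chance does in about 1 of 20 sets. Txnrd1 and Gsr were high in KO palmitate library 1, at 9220.7 and 10284.9 normalized counts. Srxn1 was low in KO control library 3, at 1971.5, though its whole group spanned only 1971.5 to 2005.5. Gsr was low in KO control library 4, at 10411.5.

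The palmitate response, in KO minus WT, differed for Gclc (-0.30, limma adjusted p = 3.76e-06), G6pdx (-0.42, limma adjusted p = 1.03e-05), Pgd (-0.19, limma adjusted p = 0.00268), Txnrd1 (-0.13, limma adjusted p = 0.0279), Osgin1 (-0.18, limma adjusted p = 0.0429) and Gsr (-0.13, limma adjusted p = 0.0438).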

How the results depend on the processing

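For KO against WT, 10 enzymes were called in control under every setting run, and 9 after palmitate, or 10 with libraries rescaled to the same total or after quantile normalization. For palmitate 5 were called in KO, or 7 after quantile normalization, and 8 in WT. Libraries left out one at a time gave 10 to 10, 9 to 9, 5 to 5 and 7 to 8. For the difference of responses 6 enzymes became 3 in limma without trend and robust fitting, 4 with no filter, 7 with libraries rescaled to the same total, 7 in edgeR, 7 in DESeq2, and 3 to 7 with a library left out, and the cause was not tested. Over all genes the leave-one-out counts were 11470 to 11567, 11443 to 11618, 5245 to 6248, 5004 to 5771 and 1187 to 1784. Values near 0 changed sign. Pgd after palmitate became -0.063 with libraries rescaled to the same total and -0.11 after quantile normalization. Txnrd1 with palmitate in KO became 0.016 and 0.049 under those scalings and ran from -0.033 to 0.0045 with a library left out. Osgin1 in KO became 0.018 after quantile normalization, and Gsr in WT became 0.00999 and 0.025. Of the calls on the difference, Osgin1 and Gsr were each lost under 14 and Txnrd1 under 8 of 25 alternatives. Hmox1 was gained in edgeR, in DESeq2, under both other scalings and with a replicate block. It was also gained without KO palmitate library 1 or WT control library 1.

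Same-numbered libraries correlated between -0.053 and 0.061 in their deviations, some above and some below the highest correlation with another number. Values this small cannot decide whether replicate numbers paired the libraries. Without a replicate block 11744, 11755, 5960, 5734 and 1508 genes were called. With a replicate block 11805, 11836, 6186, 5942 and 1820 genes and 10, 9, 5, 8 and 7 enzymes were called, the added call being the Hmox1 difference (limma adjusted p = 0.00646). Library number limits the exact tests, and Nqo1 rests on the fewest reads of the 10.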
